A study of Mus musculus with 12 samples.

Results

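The HOX genes of Ocy454 cells, a mouse osteocytic line derived from long bone, were examined in 12 RNA-seq libraries. They were taken as the protein-coding genes of the mm9 annotation named Hox with a cluster letter a to d and a number, which gave 39 genes (11 Hoxa, 10 Hoxb, 9 Hoxc and 9 Hoxd) of 37583 gene IDs counted. Hoxa3 carries 2 IDs, of which the second shares all of its exon bases with other genes and held 0 counts, so 40 IDs stand for the 39 genes. Of the 39 genes, 29 passed the filter on low counts and were tested. The other 10 were Hoxb1 and all 9 Hoxd genes, so counts over the genes tested leave out the whole Hoxd cluster.

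HOX genes encode homeodomain transcription factors and lie in clusters on separate chromosomes, numbered by paralog group from the 3′ end to the 5′ end of each cluster. In the embryo, genes of low number are used towards the head and genes of high number towards the tail and the ends of the limbs, and cells in the adult keep much of this pattern as a record of where in the body they arose. In limb skeleton, paralog groups 9 to 13 of the Hoxa and Hoxd clusters pattern the segments from shoulder or hip to digits.

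Control cells, whose genotype the labels call original, and DKO cells, labelled as carrying deletions of HDAC4 and HDAC5, were grown for 14 days at 37 °C, after which dishes were either left still (static) or shaken to produce fluid flow shear stress (FFSS) over 3 h. Both targeted proteins belong to the class IIa histone deacetylases, which repress transcription from within the nucleus. Each of the 4 groups (control static, control FFSS, DKO static, DKO FFSS) held 3 libraries of total RNA. Per the study's methods, all work used a single-cell subclone of a line with a temperature-sensitive T antigen, and FFSS was applied by orbital rotation. Deletion and cell line cannot be told apart here, because each genotype was represented by its own line. Whether the DKO line was 1 clone was not stated in the sources used here. Whether the 3 replicates were separate cultures handled apart was not stated, so p-values measure the spread between these libraries, which may be partly technical.

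Reads assigned to genes were between 17.6 and 19.2 M per library, and 3 counts, the most that a count of 0 allows, corresponded to between 0.156 and 0.171 CPM (counts scaled to the same library total). Transcripts of the targeted genes were still counted in DKO cells, where the log2 fold changes of the 2 IDs of Hdac4 were -0.39 and -0.85 in static culture and where Hdac5 was between 80.2 and 90.8 CPM in static culture against 127 to 141 CPM in control cells. Under FFSS, the log2 fold changes of the 2 IDs of Hdac4 were -0.50 and -1.48. Hdac5 was there between 92.4 and 93.3 CPM in DKO and between 71.1 and 90.2 CPM in control libraries (log2 fold change 0.19 ± 0.079, edgeR adjusted p = 0.0512). Osteocyte markers, summed over 10 genes, were between 391 and 448 CPM in control static and between 4068 and 4138 CPM in DKO static libraries. Of the 9 osteocyte genes tested, 5 were called higher and 1, Pdpn, lower, where 7.98% and 7.30% of all genes were called. Pdpn went from 28.4 ± 0.847 to 5.11 ± 0.150 CPM, and Capg had a log2 fold change of -0.82 ± 0.089 (edgeR adjusted p = 2.88e-06). Sost was between 1.48 and 12.4 CPM in control static and between 2042 and 2097 CPM in DKO static libraries, and Fgf23 was at or near 0 in all groups. Chondrocyte markers, summed over 12 genes, were between 521 and 683 CPM in control static and between 3346 and 4117 CPM in DKO static libraries, and 4 of 9 tested were called higher and 1 lower, where 7.98% and 7.30% of all genes were. Endothelial markers summed to at most 0.537 CPM in any library, and haematopoietic markers to between 24.7 and 29.2 CPM in control static and 4.89 to 5.54 CPM in DKO static libraries. Of the 7 haematopoietic genes 3 were tested, and Cd68, which made up most of the sum, fell while Lyz2 and Csf1r rose. The part of these markers in the HOX results was not tested, and in bulk RNA a change in the share of a kind of cell and a change in RNA per cell cannot be told apart. Control FFSS replicate 1 stood apart from replicates 2 and 3, with 5.87% of reads outside annotated genes against 9.19% and 10.04%, where control static libraries had 5.10 to 5.21% and DKO libraries 7.07 to 8.55%. Osteoblast markers moved with that split and with genotype. They summed to between 31344 and 37724 CPM in control static, 11559 and 32562 CPM in control FFSS and 100577 and 111610 CPM in DKO static libraries, and Ibsp was at 2919 CPM in control FFSS replicate 1 against 458 and 509 CPM in replicates 2 and 3. Their part in the HOX differences was likewise not tested.

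The clusters also encode microRNAs (miRNAs) whose best known targets are HOX transcripts. The miRNAs themselves were not measured, since all their gene IDs held 0 counts. The mature miR-196 sequences from RefSeq (GRCm38.p6) are shown because the called genes Hoxb7, Hoxb8 and Hoxc8 hold sites for them, given after the miRNAs. Capitals mark the seed (bases 2 to 8), which miR-196a-5p, from the Hoxb and Hoxc clusters, and miR-196b-5p, from the Hoxa cluster, share.
miR-196a-5p: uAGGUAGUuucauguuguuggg
miR-196b-5p: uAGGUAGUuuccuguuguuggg
In mm9 transcripts, 9 of the 39 HOX genes (23.1%) held the 7 bases complementary to this seed in the longest annotated 3′ UTR, against 5.71% of 20007 protein-coding genes, whose 3′ UTRs differ in length. Hoxa5, Hoxa7, Hoxb7 and Hoxc8 were among them. The site of Hoxb7 and 1 of the 3 sites of Hoxc8, both higher in DKO cells, (Hoxb7 at chr11:96151098-96151119 and Hoxc8 at chr15:102824164-102824185, mm9, plus strand) are given with the seed match in capitals.
Hoxb7: ctgtaaaaaaatatACTACCTa
Hoxc8: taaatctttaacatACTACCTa
Hoxb8 lacked that exact match but held the longest complement to miR-196a-5p of all genes. Its site at chr11:96146202-96146223 (mm9, plus strand, 3′ UTR) pairs with 21 of 22 bases and forms a G-U wobble at the remaining base, and 1 of 19859 genes, Hoxb8 itself, had as many paired bases without gaps. This site lies within the 1069 exon bases that Hoxb8 shares with Hoxb7, so it is annotated in exons of both genes. Capitals mark the paired bases.
Hoxb8: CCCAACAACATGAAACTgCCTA
A sequence match is a description and does not show that the site is used in these cells.

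**Figure D1:**
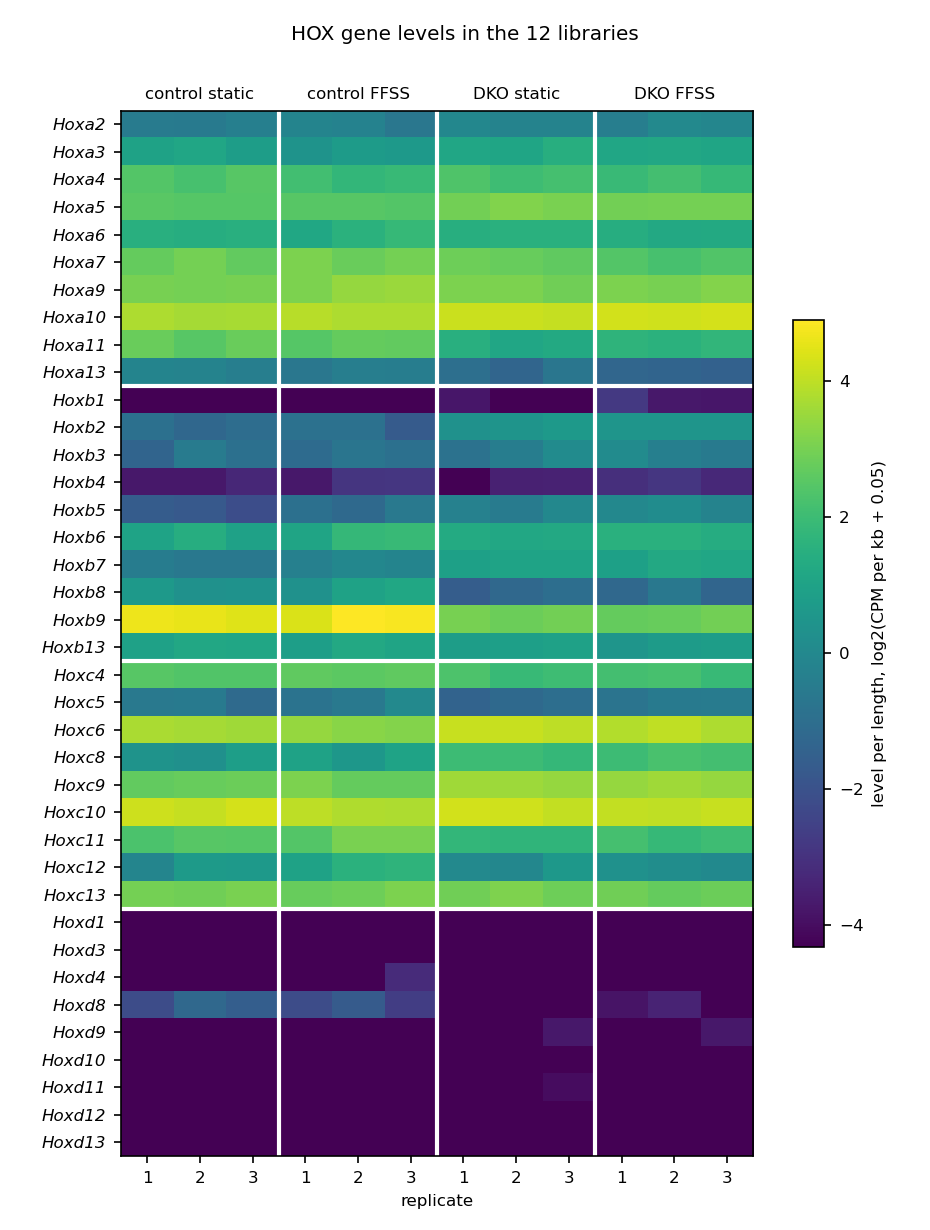
Level of the HOX genes reported here in each of the 12 libraries, in log2(CPM per kb of countable exon + 0.05), with genes in rows by cluster and paralog group and libraries in columns by group. Hoxb9, Hoxc10, Hoxa10 and Hoxc6 are bright, Hoxb9 darkens from control to DKO columns, and the Hoxd rows are dark except Hoxd8 in control columns.

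The HOX genes read out at the highest level in control static cells, Hoxb9 and Hoxc10, came from paralog groups 9 and 10, and the Hoxd cluster was nearly silent. Levels were compared between genes only per length, as CPM per kb of exon not shared with another gene. Hoxb9, a gene of rib-bearing thoracic levels, was highest at 23.8 ± 1.67 CPM per kb (SD, n = 3), 16.6% of the level summed over all 39 genes. Hoxc10, which takes part in lumbar and hindlimb patterning, followed at 18.3 ± 1.27 CPM per kb, then Hoxa10, a lumbar gene, at 12.9 ± 0.486 and Hoxc6, a thoracic gene, at 12.6 ± 0.584 CPM per kb. Hoxa10 and Hoxc6 did not differ beyond their spread. At the other end, Hoxb4, a gene of the neck and of blood progenitors, was at 0.0347 ± 0.0151 CPM per kb and Hoxb1, a hindbrain gene, at 0.

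The order of the leading genes differed in DKO static cells. There Hoxc10 was first at 18.1 ± 1.24 CPM per kb, and Hoxa10 at 17.5 ± 0.617 and Hoxc6 at 16.8 ± 0.959 lay within the spread of it. Hoxc9, the thoracic paralog of Hoxb9, came next at 11.5 ± 0.572 CPM per kb, and Hoxb9 stood at 7.53 ± 0.414 CPM per kb, 5.41% of the sum. In single libraries Hoxc10 was at 18.1, 17.2 and 19.7 CPM per kb in static and 15.8, 14.0 and 13.6 in FFSS replicates 1 to 3 of control cells. In DKO cells it was at 19.03, 18.6 and 16.7 CPM per kb in static and 16.6, 16.1 and 17.5 in FFSS replicates. Only the control FFSS libraries of Hoxc10 lay below all others. Hoxa10 was at 13.5, 12.5 and 12.8 CPM per kb in static and 14.9, 13.5 and 13.6 in FFSS replicates of control cells, against 18.04, 17.7 and 16.8 in static and 19.2, 18.7 and 19.7 in FFSS replicates of DKO cells. All 6 DKO libraries of Hoxa10 were above all 6 control libraries, with log2 fold changes of 0.44 ± 0.060 (SE, edgeR adjusted p = 2.73e-05) in static and 0.46 ± 0.060 (adjusted p = 1.71e-05) in FFSS culture, both under 2-fold.

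Summed counts over the 39 genes were alike in both genotypes while their division among clusters was not. In control cells the sum was 345 ± 4.28 CPM under static and 358 ± 17.1 CPM under FFSS culture (SD, n = 3 each), and in DKO cells it was 344 ± 9.66 and 339 ± 2.05 CPM. The Hoxb cluster summed to 79.6, 79.6 and 71.1 CPM in static and 68.4, 98.3 and 93.3 CPM in FFSS replicates of control cells, against 40.3, 38.96 and 42.3 CPM in static and 39.3, 41.5 and 41.6 CPM in FFSS replicates of DKO cells. All 6 DKO libraries were lower than all 6 control libraries, and the share of Hoxb in the sum was 22.3% in control static and 11.8% in DKO static cells. The lower sum was that of Hoxb9, since the other 9 Hoxb genes summed to 15.6 ± 1.15 CPM in control static and 21.2 ± 1.54 CPM in DKO static cells. The Hoxa cluster went from 138 ± 2.27 to 154 ± 3.80 CPM and the Hoxc cluster from 129 ± 3.18 to 149 ± 7.41 CPM between control and DKO static cells. No test was made of these sums, which weigh long and highly read genes most.

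**Figure D2:**
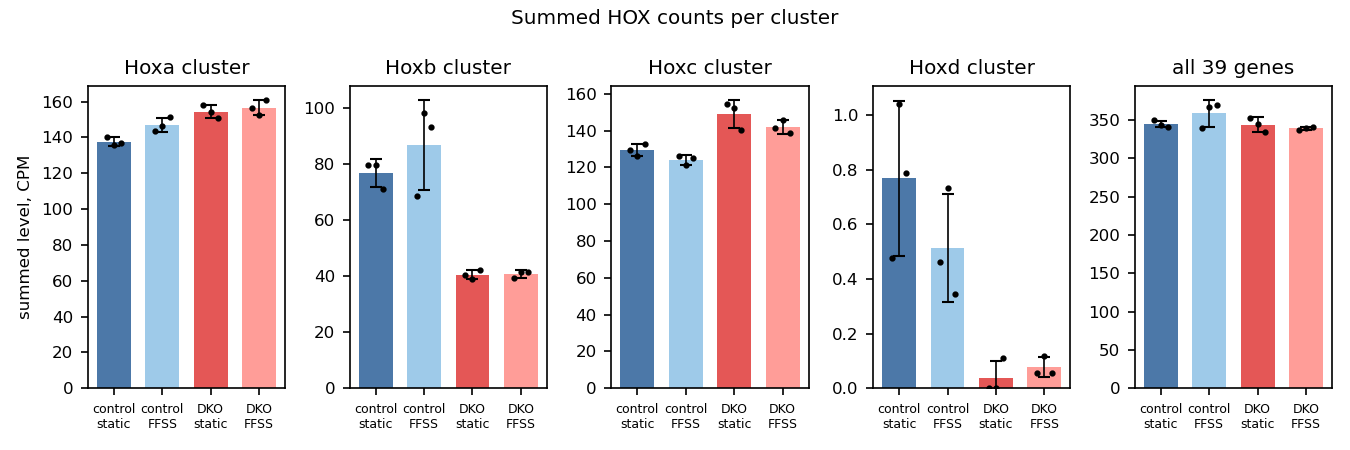
Summed level of the genes of each cluster and of all 39 genes, in CPM, as bars of the group mean with SD (n = 3) and a point per library. Hoxb is lower in all 6 DKO than in all 6 control libraries, Hoxd is under 1.1 CPM throughout, and the sum of all 39 genes is between 334 and 370 CPM.

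DKO and control cells were compared in static culture first. A call required more than a 2-fold difference and an adjusted p under 0.05 from edgeR, with 14904 genes in the adjustment. Of the 29 HOX genes tested, 7 were called, where 15.3% of all genes were called. Hoxb2, Hoxb5, Hoxb7 and Hoxc8 rose (4 genes, against 7.98% of all genes called higher) and Hoxb8, Hoxb9 and Hoxa11 fell (3 genes, against 7.30% called lower). Without the limit on fold, 15 of 29 passed the adjusted p, where 54.2% of all genes did, and 16 of 29 had groups that did not overlap, where 69.0% of all genes did. The median log2 fold change was 0.02 over the 29 genes and 0.01 over all genes tested, and the median size of a log2 difference 0.44 and 0.40.

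The calls of the Hoxb cluster (chr11:96055630-96229570 in mm9, plus strand, with Hoxb13 first and Hoxb1 last) lay side by side in opposite directions. Hoxb9 was at 64.5, 62.7 and 56.3 CPM in control static and 20.4, 18.3 and 19.4 CPM in DKO static replicates. Every DKO library was under a level that no control library came near, and the log2 fold change was -1.66 ± 0.12 (SE, edgeR adjusted p = 6.30e-08). Hoxb8, the next gene and known for its part in blood progenitors and trunk patterning, was at 2.38, 1.93 and 1.95 CPM in control static and 0.440, 0.604 and 0.722 CPM in DKO static replicates. The groups did not overlap, and the log2 fold change was -1.81 ± 0.31 (edgeR adjusted p = 1.79e-04).

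Hoxb7, which follows Hoxb8 and is used in the trunk, went the other way. It was at 2.06, 1.82 and 1.79 CPM in control static and 5.61, 5.98 and 6.06 CPM in DKO static replicates, with no overlap and a log2 fold change of 1.63 ± 0.15 (edgeR adjusted p = 5.36e-07). Hoxb7 and Hoxb8 lie on the same strand and share 1069 exon bases, in which reads were ambiguous and not counted, so both values rest on the rest of each gene. Transcripts that run through both genes were not told apart.

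Hoxb6, next in the cluster, was between 3.95 and 5.47 CPM in control static and between 4.66 and 5.005 CPM in DKO static libraries, which lay inside the control range (log2 fold change 0.09 ± 0.20, edgeR adjusted p = 0.746). Hoxb5, which helps to set the position of the shoulder girdle, was at 0.740, 0.677 and 0.474 CPM in control static and 2.09, 1.81 and 2.56 CPM in DKO static replicates. The groups were apart, with a log2 fold change of 1.76 ± 0.26 (edgeR adjusted p = 5.83e-05). Hoxb4 and Hoxb3 lay between Hoxb5 and Hoxb2 and were not called, with log2 fold changes of -0.33 ± 0.78 and 0.59 ± 0.33 at 45 and 262 counts over all 12 libraries.

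Hoxb2, a hindbrain gene, was at 0.793, 0.625 and 0.737 CPM in control static and 2.03, 2.20 and 2.4997 CPM in DKO static replicates. The DKO libraries were all above the control libraries, with a log2 fold change of 1.63 ± 0.24 (edgeR adjusted p = 4.43e-05). Hoxb2 shares 1632 exon bases with the antisense gene Hoxb3os, and the counting did not use strand, so reads of both in that stretch were dropped. Hoxb3os held 290% as many counts as Hoxb2 and had a log2 fold change of 0.66 ± 0.18 in the same direction (edgeR adjusted p = 0.00603). Without strand, it is uncertain here too which transcript rose. Hoxb1 held 0 counts in all 6 control libraries, 1 count in DKO static and 6 counts in DKO FFSS libraries, and Hoxb13, at the far end, had a log2 fold change of -0.23 ± 0.15 (edgeR adjusted p = 0.211).

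**Figure D3:**
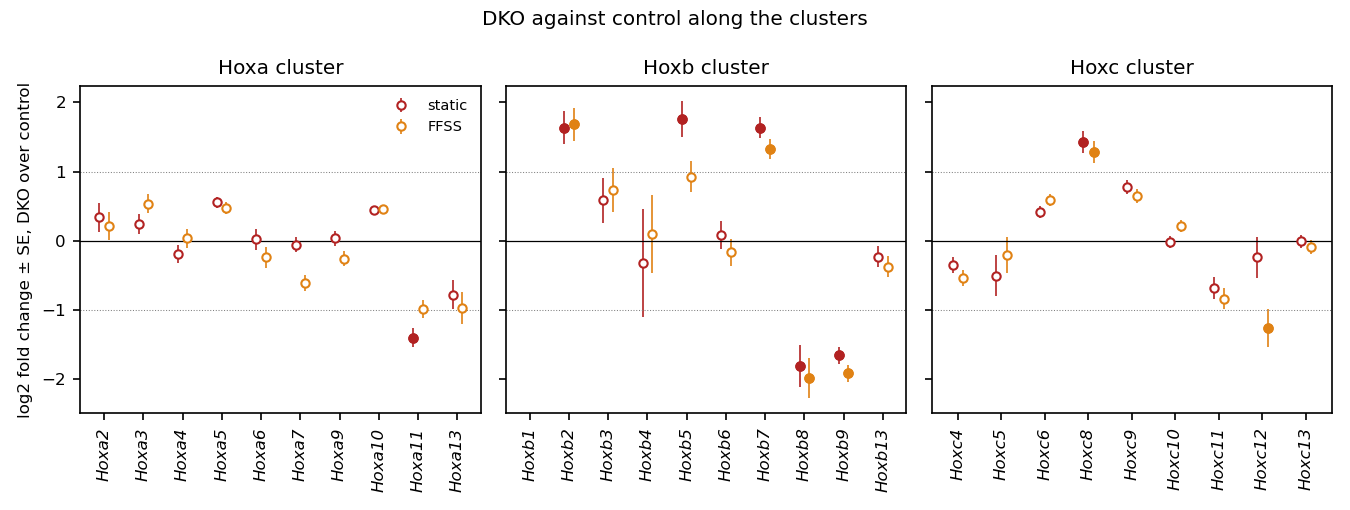
Log2 fold change of DKO over control cells, with SE, for the tested HOX genes reported here, ordered by paralog group along the Hoxa, Hoxb and Hoxc clusters, in static (red) and FFSS (orange) culture. Filled points were called, dotted lines mark 2-fold, and Hoxb1 was not tested. Hoxb8 and Hoxb9 lie below -1.6 and Hoxb2 and Hoxb7 above 1.3 in both cultures.

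In the Hoxc cluster, Hoxc8 was the member called in static culture. Hoxc8, used in lower thoracic patterning, was at 2.96, 2.76 and 4.001 CPM in control static and 9.02, 9.11 and 8.11 CPM in DKO static replicates, without overlap (log2 fold change 1.43 ± 0.16, edgeR adjusted p = 4.47e-06). Its neighbours Hoxc9 (0.78 ± 0.10, adjusted p = 1.32e-05) and Hoxc6 (0.42 ± 0.084, adjusted p = 6.92e-04) had positive log2 fold changes under 2-fold. At the 3′ end, Hoxc5 (-0.50 ± 0.29, adjusted p = 0.163) and Hoxc4 (-0.36 ± 0.12, adjusted p = 0.0180) had negative ones. Hoxc11, a limb and lumbosacral gene, had a log2 fold change of -0.69 ± 0.16 (adjusted p = 0.00214). Hoxc10, Hoxc12 and Hoxc13 had adjusted p between 0.526 and 0.949.

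In the Hoxa cluster (chromosome 6, minus strand), the member called was Hoxa11, which patterns forearm and lower leg. It was at 11.3, 9.22 and 11.5 CPM in control static and 4.57, 3.57 and 3.94 CPM in DKO static replicates, and the groups were far apart (log2 fold change -1.40 ± 0.13, edgeR adjusted p = 8.97e-07). Hoxa11 shares 1038 exon bases with the antisense gene Hoxa11as, which held 45.7% as many counts and fell too, from 5.18, 4.43 and 5.05 CPM to 1.76, 1.04 and 2.39 CPM (log2 fold change -1.50 ± 0.21, adjusted p = 3.76e-05). Without strand, reads of Hoxa11 and Hoxa11as in parts annotated for one gene alone cannot be assigned to a strand either, so these values are uncertain as to which transcript fell. Hoxa13, which patterns hand and foot, had a log2 fold change of -0.78 ± 0.21 (adjusted p = 0.00618), and its groups did not overlap. The genes Hoxa4 to Hoxa9 other than Hoxa5 had log2 fold changes between -0.19 and 0.04, and Hoxa5, a cervicothoracic gene, 0.55 ± 0.084 (adjusted p = 6.55e-05).

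RefSeq promoter sequences (GRCm38.p6, 250 bases before to 50 after the start) were at hand for 22 of the 39 genes as 24 entries. Those of Hoxb8 and Hoxa11, which fell, and of Hoxd8, described next, are shown, with the dinucleotide CG in capitals because dense CG marks the promoters that Polycomb and trithorax proteins act on. Hoxb8 lies at chr11:96281655-96281954 (plus strand), Hoxa11 at chr6:52245761-52246060 (minus strand) and Hoxd8 at chr2:74704365-74704664 (plus strand).
Hoxb8: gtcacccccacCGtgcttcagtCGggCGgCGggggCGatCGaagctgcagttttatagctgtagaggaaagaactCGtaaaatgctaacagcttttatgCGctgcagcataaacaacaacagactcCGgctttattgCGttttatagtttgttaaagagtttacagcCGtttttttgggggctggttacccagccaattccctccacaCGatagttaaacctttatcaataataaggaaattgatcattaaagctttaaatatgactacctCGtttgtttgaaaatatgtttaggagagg
Hoxa11: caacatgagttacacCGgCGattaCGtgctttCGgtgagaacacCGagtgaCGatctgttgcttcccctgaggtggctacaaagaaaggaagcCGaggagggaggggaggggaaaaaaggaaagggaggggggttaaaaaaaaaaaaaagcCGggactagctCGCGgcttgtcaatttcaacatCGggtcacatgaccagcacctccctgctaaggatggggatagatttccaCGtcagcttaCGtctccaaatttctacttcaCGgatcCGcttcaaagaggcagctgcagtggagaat
Hoxd8: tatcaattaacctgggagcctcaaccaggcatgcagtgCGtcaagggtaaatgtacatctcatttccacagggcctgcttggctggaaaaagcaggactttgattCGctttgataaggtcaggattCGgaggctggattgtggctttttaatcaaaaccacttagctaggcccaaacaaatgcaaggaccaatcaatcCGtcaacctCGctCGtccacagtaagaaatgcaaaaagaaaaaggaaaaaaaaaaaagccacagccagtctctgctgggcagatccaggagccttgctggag
The dinucleotide occurred 13, 15 and 6 times in these 3 windows. Over the 24 HOX entries the median was 14.5 (range 4 to 45, highest in Hoxa13), and over all 32851 entries it was 7. The motif TATAAA was in 4 of 24 HOX entries (16.7%), Hoxb8 among them, and in 13.6% of all entries, read on both strands. The homeodomain core TAATTA was in 2 of 24 (8.33%), both of Hoxd11, against 5.29% of all. The MEF2-type pattern of CTA and TAG with any 4 bases between them was in 1 of 24 (4.17%), Hoxa6, against 3.69% of all. None of the 3 windows printed held TAATTA or the MEF2-type pattern, which says only that these letters are not in these 300 bases.

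Hoxd8 was the sole member of the Hoxd cluster (chr2:74506367-74603200) with more than 2 counts over the 12 libraries. Control cells held 9, 20 and 15 counts of it in static and 9, 15 and 6 in FFSS replicates, and DKO cells 0, 0 and 0 in static and 1, 2 and 0 in FFSS replicates. Every control library was above every DKO library. Against 3 counts over the DKO static group, the most that 0 allows, control static cells had at least 14.8-fold more, and in FFSS culture the ratio of 30 to 3 counts, scaled to the totals, was 10.05 (exact 95% interval 3.12 to 51.5, counting error only). Hoxd8 was removed by the filter, and in a fit without it the edgeR adjusted p was 2.72e-06 in static and 0.00167 in FFSS culture. Hoxd1, Hoxd3, Hoxd10, Hoxd12 and Hoxd13 held 0 counts in all 12 libraries, and Hoxd4, Hoxd9 and Hoxd11 held 1, 2 and 1. Of the genes flanking the cluster, Lnp was between 52.8 and 54.6 CPM and Mtx2 was between 35.5 and 37.9 CPM in control static libraries. In DKO static libraries they were slightly lower, Lnp between 44.9 and 49.7 CPM and Mtx2 between 32.4 and 33.5 CPM.

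Read by position along the clusters, the signs and calls in static culture were as follows, where 7.98% of all genes were called higher and 7.30% lower. Of the genes of groups 1 to 3, all 5 tested had positive log2 fold changes (0.24 to 1.63, median 0.59), and 1 was called. Of groups 4 to 8, 7 of 13 were positive (median 0.02), with 3 called higher and 1 lower. Of groups 9 to 13, 8 of 11 were negative (median -0.23), with 2 called lower and 0 higher. Hoxc10 and Hoxc13 count as negative there at -0.02 and -0.01. The adjusted p alone was passed by 4 negative and 2 positive genes of groups 9 to 13, where 54.2% of all genes passed. These are counts of neighbouring genes that share clusters and overlapping transcripts, so they are given without a test. The share of each sign over all genes is not given here.

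Paralogs of the same number differed in direction in groups 8 and 9, among others, and in group 11 both tested genes were lower. Group 5 held both signs too, and in group 7 Hoxb7 rose while Hoxa7 was level at -0.06 ± 0.11. In group 9, Hoxb9 fell while Hoxc9 had a positive difference and Hoxa9 was level at 0.04 ± 0.10, and the 4 genes summed to 103 ± 3.61 CPM in control static and 73.9 ± 3.64 CPM in DKO static cells. In group 8, Hoxb8 fell and Hoxc8 rose, and the sum went from 6.09 ± 0.559 to 9.34 ± 0.453 CPM. In group 11, Hoxa11 and Hoxc11 were both lower, and the sum went from 21.4 ± 1.07 to 10.7 ± 0.628 CPM. In group 2, Hoxb2 rose and Hoxa2 had a log2 fold change of 0.34 ± 0.21 (edgeR adjusted p = 0.188), and their sum went from 2.17 ± 0.174 to 4.08 ± 0.173 CPM between control and DKO static cells (SD, n = 3 each).

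The same genotypes were then compared under FFSS, in 6 other libraries. Of the 29 genes, 6 were called, where 17.2% of all genes were. Hoxb2, Hoxb7 and Hoxc8 were higher (3 genes, against 8.25% of all) and Hoxb8, Hoxb9 and Hoxc12 lower (3 genes, against 8.96%). Without the limit on fold 21 of 29 passed, against 56.6% of all genes, and 21 of 29 did not overlap, against 58.4%. Of the 6, 5 that had been called in static culture, Hoxb2, Hoxb7, Hoxb8, Hoxb9 and Hoxc8, had the same sign there, and 23 of the 29 genes had the same sign in both cultures. The matching shares over all genes are not given here, so these counts do not set HOX genes apart from other genes.

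Hoxb9 was at 53.2, 76.8 and 71.9 CPM in control FFSS and 17.0, 17.1 and 19.5 CPM in DKO FFSS replicates, again without overlap (log2 fold change -1.91 ± 0.12, edgeR adjusted p = 1.78e-08). Hoxb8 was at 1.90, 3.03 and 3.47 against 0.608, 0.952 and 0.559 CPM (-1.99 ± 0.29, adjusted p = 4.28e-05). Hoxb7 was at 2.26, 2.78 and 2.58 against 5.59, 7.08 and 6.49 CPM (1.32 ± 0.14, adjusted p = 2.36e-06). Without control FFSS replicate 1 all 6 genes were called again and Hoxa11, Hoxa13 and Hoxc11 in addition, 9 of 29 where 20.1% of all genes were. In Hoxb7, Hoxb8 and Hoxb9 control FFSS replicate 1 was the lowest of its group, and the groups were still apart.

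Hoxb2 was at 0.822, 0.830 and 0.446 CPM in control FFSS and 2.27, 2.26 and 2.24 CPM in DKO FFSS replicates (log2 fold change 1.68 ± 0.24, edgeR adjusted p = 3.23e-05). Hoxc8 was at 4.47, 3.27 and 4.56 against 9.07, 10.9 and 10.01 CPM (1.29 ± 0.16, adjusted p = 8.24e-06). For both genes the lowest DKO library was above the highest control library.

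Hoxc12 was lower in DKO FFSS cells, at 1.27, 1.13 and 1.01 CPM against 2.00, 2.98 and 3.22 CPM (log2 fold change -1.26 ± 0.27, edgeR adjusted p = 0.00117), with no overlap. Hoxa11 and Hoxb5 had been called in static culture and just missed 2-fold here. Hoxa11 was at 9.09, 10.8 and 10.6 CPM in control FFSS and 5.20, 4.76 and 5.48 CPM in DKO FFSS replicates (log2 fold change -0.98 ± 0.13, edgeR adjusted p = 2.07e-05). Hoxb5 was at 1.28, 1.07 and 1.68 against 2.54, 2.92 and 2.24 CPM (0.92 ± 0.23, adjusted p = 0.00303). Both had groups apart, so the lost calls are calls on size. The change of the DKO to control difference between cultures was not called for either gene. Hoxa13 (-0.97 ± 0.23, adjusted p = 0.00218) and Hoxc11 (-0.84 ± 0.15, adjusted p = 3.22e-04) were also under 2-fold.

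**Figure D4:**
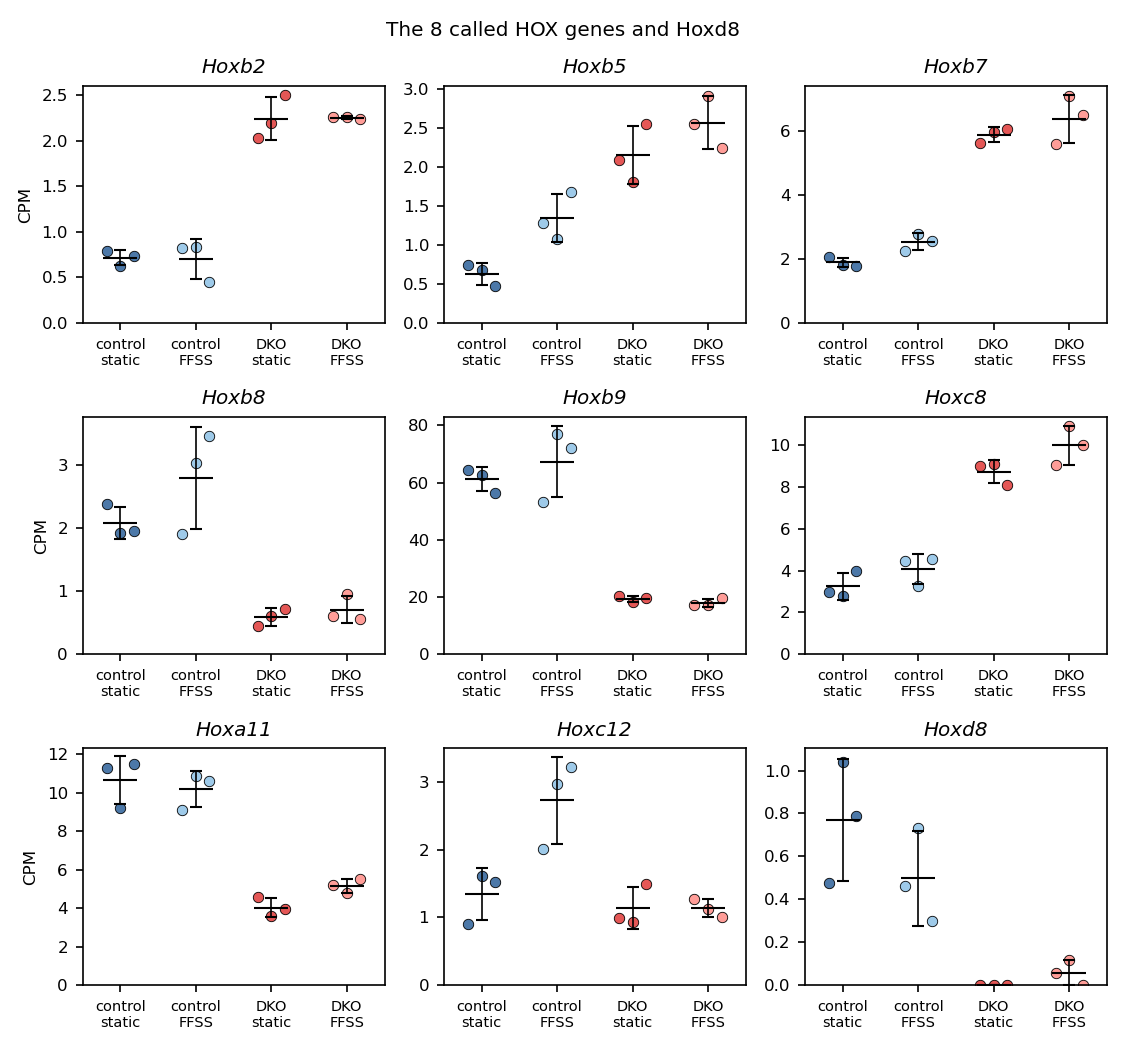
Level in CPM of the 8 HOX genes called in any comparison and of Hoxd8 in each library, with the group mean and SD (n = 3). Hoxb2, Hoxb7 and Hoxc8 are higher and Hoxb8, Hoxb9, Hoxa11 and Hoxd8 lower in all 6 DKO than in all 6 control libraries, and Hoxb5 and Hoxc12 are higher in control FFSS than in control static libraries.

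FFSS against static culture addressed whether HOX levels moved within 3 h of flow. In control cells 2 of the 29 genes were called, where 5.93% of all genes were, and both were higher (3.96% of all genes were called higher). Hoxb5 was at 0.740, 0.677 and 0.474 CPM in static and 1.28, 1.07 and 1.68 CPM in FFSS replicates, with no overlap (log2 fold change 1.09 ± 0.28, edgeR adjusted p = 0.00886). Hoxc12, the second gene from the 5′ end of the Hoxc cluster, was at 0.899, 1.61 and 1.53 CPM in static and 2.00, 2.98 and 3.22 CPM in FFSS replicates, also apart (1.02 ± 0.26, adjusted p = 0.00901). Both genes were low, at 369 and 364 counts over all 12 libraries.

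Without the limit on fold, 7 of the 29 genes passed the adjusted p in control cells, against 35.8% of all genes, and 10 of 29 did not overlap, against 41.3%. Hoxc11 (log2 fold change 0.45 ± 0.15, edgeR adjusted p = 0.0309) and Hoxa9 (0.37 ± 0.10, adjusted p = 0.0152) were positive. Hoxa4 (-0.46 ± 0.13, adjusted p = 0.0174), Hoxc6 (-0.37 ± 0.085, adjusted p = 0.00538) and Hoxc10 (-0.35 ± 0.083, adjusted p = 0.00625) were negative.

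The share of reads outside genes was highest in control FFSS replicates 2 and 3. Hoxc12 was higher in these than in replicate 1, while Hoxb5 was lower in replicate 2 than in replicate 1. With that share in the edgeR model 0 of the 29 genes were called, where 1.33% of all genes were, and 6 of 29 had an unadjusted p under 0.05. How many of all genes had such an unadjusted p is not given here, so the 6 do not set HOX genes apart. In that fit Hoxb5 (0.94 ± 0.45, edgeR adjusted p = 0.168) and Hoxc12 (0.47 ± 0.36, adjusted p = 0.437) kept their sign, while Hoxc11 and Hoxa9 turned to -0.08 and -0.01. Without control FFSS replicate 1 the same 2 genes were called, Hoxb5 at 1.12 ± 0.32 (adjusted p = 0.00386) and Hoxc12 at 1.20 ± 0.23 (adjusted p = 8.10e-05), where 11.3% of all genes were. Without control FFSS replicate 3 neither gene was called, with log2 fold changes of 0.89 for each, where 3.33% of all genes were called. Group and share of reads outside genes are largely confounded in control cells, so they cannot be told apart.

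In DKO cells 0 of the 29 genes were called by edgeR, where 0.0872% of all genes were. None passed the adjusted p (0.872% of all genes did), 4 had an unadjusted p under 0.05, and DESeq2 and limma-voom also called 0. The share of all genes under that unadjusted p is not given here, so the 4 do not set HOX genes apart. Groups did not overlap for 8 of 29 genes, against 29.9% of all genes. Hoxb5 was at 2.09, 1.81 and 2.56 CPM in static and 2.54, 2.92 and 2.24 CPM in FFSS replicates, which overlapped (log2 fold change 0.25 ± 0.22, edgeR adjusted p = 0.702). Hoxc12 was at 0.990, 0.933 and 1.4998 against 1.27, 1.13 and 1.01 CPM, with a log2 fold change of -0.00 ± 0.31 (adjusted p = 0.996). The smallest adjusted p among the 29 genes was that of Hoxa7 (-0.41 ± 0.11, adjusted p = 0.113).

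The difference between the responses (DKO minus control) was tested directly as an interaction. It was called for 0 of the 29 genes by edgeR, DESeq2 and limma-voom, where edgeR called 0.651% of all genes, and 0 passed the adjusted p alone (3.97% of all genes did). Of the 29, 4 had an unadjusted p under 0.05, again with no share over all genes given for comparison. The log2 difference was -1.02 ± 0.40 for Hoxc12 (adjusted p = 0.152) and -0.84 ± 0.35 for Hoxb5 (adjusted p = 0.171). It was 0.42 ± 0.19 for Hoxa11 (adjusted p = 0.197) and -0.55 ± 0.16 for Hoxa7 (adjusted p = 0.0657). A p that misses the threshold does not show that the responses were alike. Without control FFSS replicate 1, Hoxc12 was called (-1.20 ± 0.37, adjusted p = 0.0107), where 7.6% of all genes were. Then 5 of 29 passed the adjusted p alone, where 37.8% of all genes did, the others being Hoxa7 (-0.49 ± 0.14), Hoxa9 (-0.42 ± 0.10), Hoxb9 (-0.40 ± 0.11) and Hoxc10 (0.30 ± 0.11).

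**Figure D5:**
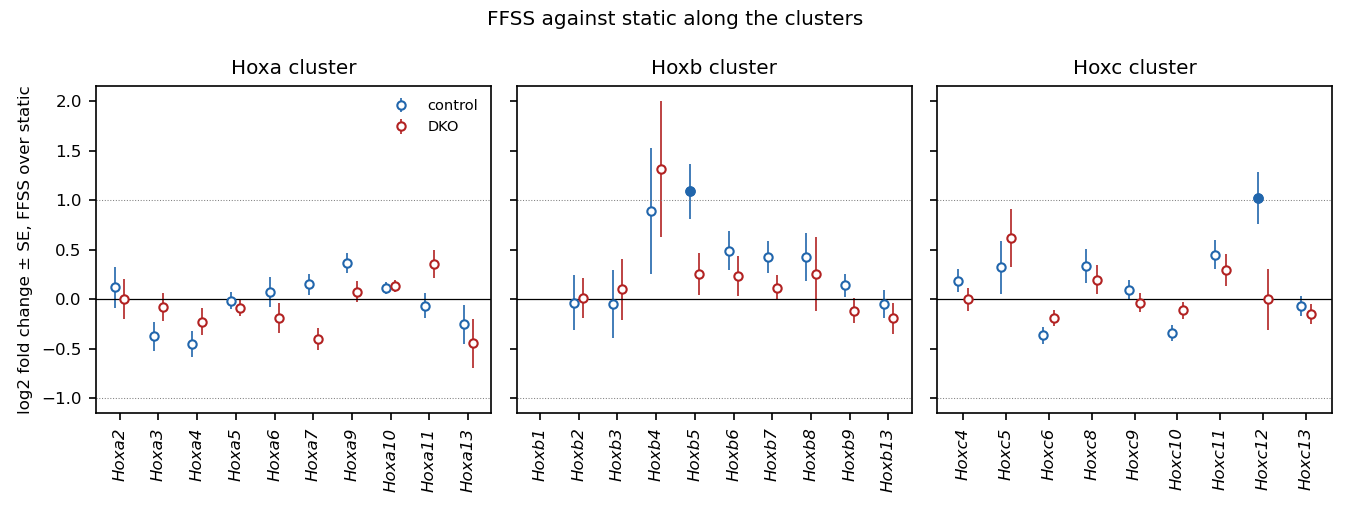
Log2 fold change of FFSS over static culture, with SE, for the tested HOX genes reported here along the Hoxa, Hoxb and Hoxc clusters, in control (blue) and DKO (red) cells. Filled points were called and dotted lines mark 2-fold. Hoxb5 and Hoxc12 in control cells are the filled points, Hoxb4, at 45 counts in all, has the widest error, and no DKO point is filled.

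HOX proteins bind DNA with TALE homeodomain partners (the Pbx, Meis and Pknox families). Pbx4 fell in DKO static cells (log2 fold change -1.33 ± 0.28, edgeR adjusted p = 9.82e-04) and was under 2-fold under FFSS (-0.84 ± 0.29, adjusted p = 0.0227). In static culture Pbx3 (0.62 ± 0.065, edgeR adjusted p = 2.07e-06) and Meis1 (0.69 ± 0.15, adjusted p = 0.00114) had positive and Meis2 (-0.42 ± 0.083, adjusted p = 6.57e-04) negative log2 fold changes under 2-fold.

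Of the Polycomb group, which keeps HOX clusters silent, 2 of 27 genes tested were called in DKO static cells, both higher, where 15.3% of all genes were called. They were Cbx8 (log2 fold change 1.20 ± 0.077, edgeR adjusted p = 1.64e-08) and Phc3 (1.08 ± 0.11, adjusted p = 2.27e-06), both parts of the complex PRC1, and Cbx8 was called under FFSS too. Of the trithorax group and H3K27 demethylases, which oppose Polycomb, 7 of 12 passed the edgeR adjusted p in static culture, all with less than a 2-fold difference, where 54.2% of all genes passed. The median log2 fold change was -0.10 over the Polycomb and -0.04 over the trithorax genes.

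Retinoic acid, made from vitamin A, induces the 3′ genes of HOX clusters. Of 13 genes of its pathway tested, 2 rose and 2 fell in DKO static cells, where 7.98% of all genes were called higher and 7.30% lower. Aldh1a3, which makes retinoic acid, rose from 0.264, 0.417 and 0.474 to 11.3, 11.9 and 11.3 CPM (log2 fold change 4.87 ± 0.22, edgeR adjusted p = 6.04e-10), and Dhrs3, which returns retinal to retinol, rose by 1.55 ± 0.12 on the log2 scale (adjusted p = 8.50e-08). Stra6, a retinol receptor (-4.79 ± 0.50, adjusted p = 1.89e-06), and Cyp26a1, which breaks retinoic acid down (-1.89 ± 0.63, adjusted p = 0.0211), fell. Stra6 was at 2.11, 1.41 and 1.58 CPM in control static and 0, 0.0549 and 0.111 CPM in DKO static replicates. Those DKO levels are each under 3 counts, so the size of its fall is uncertain. Under FFSS 2 of the 13 were higher and 4 lower in DKO cells, where 17.2% of all genes were called. In control cells 2 were higher and 2 lower under FFSS than in static culture, where 5.93% of all genes were called.

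Of 19 other limb and axial factors tested, 2 rose and 3 fell in DKO static cells, and under FFSS 5 were higher and 4 lower, where 15.3% and 17.2% of all genes were called. Pitx1, which specifies hindlimb, was at 9.89, 12.1 and 11.3 CPM in control static and 25.9, 26.7 and 26.0 CPM in DKO static replicates (log2 fold change 1.24 ± 0.12, edgeR adjusted p = 7.09e-07). The limb selectors Tbx5 (forelimb) and Tbx4 (hindlimb) were at most 0.110 and 0.103 CPM in any library and were not tested. Gbx2 rose most (2.61 ± 0.39, adjusted p = 6.23e-05) and Pax9, a gene of the sclerotome, fell most (-1.63 ± 0.14, adjusted p = 2.13e-07). Gbx2 was only between 0.105 and 0.211 CPM in control static libraries, so the size of its rise rests on few counts. Of 23 tested neighbours and noncoding genes of the clusters, 1 rose and 1 fell in DKO static cells, where 15.3% of all genes were called. Skap1, beside the Hoxb cluster, rose (1.73 ± 0.56, edgeR adjusted p = 0.0173) at no more than 0.605 CPM, and Hoxa11as fell. With FFSS, 2 were higher and 1 lower in DKO cells, where 17.2% of all genes were called.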

How the data were processed

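RNA-seq of 12 libraries (4 groups of 3) was analysed from raw counts of reads per Ensembl gene, which the authors deposited unfiltered and not normalised. Per the study's methods, single-end reads were aligned with STAR to mm9 and counted with HTSeq. The file names describe unstranded counting, so reads in exon bases shared by genes were left out, as were reads aligned to several places (14.1 to 16.6%). Symbols were matched to an mm9 annotation for 37168 of 37583 IDs. Lines that name no gene were kept out of totals (reads outside genes 5.10 to 10.04%, ambiguous reads 2.70 to 2.95%).

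Groups followed the titles. edgeR 4.0.16 in R 4.3.3 was used for robust quasi-likelihood tests on all 12 libraries as 4 groups, with TMM factors. Following the study's filter, genes with 0 counts in 2 or more libraries were removed, and 14904 of 24360 genes with any count were tested. A call needed more than 2-fold and, after Benjamini-Hochberg correction, a p below 0.05. CPM used TMM-scaled totals, and levels per length used exon bases not shared with another gene. The SE of a log2 fold change was derived from the F statistic. The procedure was tested on simulated data. No pair of replicates agreed within sampling noise, and chi-square per degree of freedom was between 2.02 and 6.45 except for control FFSS replicate 1 (58.0 and 63.8). Alternatives were RLE factors, library totals alone, other filters, 6-library fits, DESeq2 1.42.0, limma-voom (limma 3.58.1), no fold limit, a replicate block, the share of reads outside genes as covariate and leaving out each library. Intervals and floors cover counting error only.

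The members and lists were chosen with earlier results of these data known. Values per library are given for genes called in any comparison, for the highest gene per length in each cluster, and for Hoxd8, which the filter removed despite at least 10 counts in a library. From each list up to 3 called genes with the largest change are named, with a few others, Dhrs3, Tbx4, Tbx5, Lnp, Mtx2, Hoxb3os and the TALE genes with differences under 2-fold, named after their values were seen. Of the list symbols, Hotair, Hottip and Hotairm1 were not matched and are not used here. RefSeq sequences were matched by symbol. Some genes are not reported here by name, though counts over the genes tested include them.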

Additional observations from a re-analysis of the deposited data

How the results depend on the processing

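The 7 genes called in static culture were called again under RLE factors, library totals alone, both other filters, the 6-library fit, DESeq2, limma-voom and the model with the share of reads outside genes, and in every fit without a library. In these fits between 10.8% and 16.9% of all genes were called. The other filters added Hoxd8. Without the limit on fold the counts were 15 (static) and 21 (FFSS) for DKO against control, and 7 for FFSS in control cells. The matching shares of all genes were 54.2%, 56.6% and 35.8%. For DKO against control under FFSS, leaving out a library gave 6 to 9 calls, where between 15.4% and 20.1% of all genes were called. Hoxa11 (-1.18), Hoxa13 (-1.17) and Hoxc11 (-1.05) passed 2-fold with library totals alone, which moves the median of all genes to -0.25 there, to 0.13 for FFSS in control cells and to -0.13 for the interaction. With no filter Hoxb1 was added under FFSS (adjusted p = 0.0487) on 6 counts.

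For FFSS in control cells, 0 were called with the share of reads outside genes in the model, where Hoxc11 was -0.077 and Hoxa9 -0.0073, and leaving out a library gave 0 to 2. Of all genes, 1.33% were called in that model and between 3.33% and 11.3% in the fits without a library. Without control static replicate 1 (Hoxb5 left), without control static replicate 3 (Hoxc12 left) and without control FFSS replicate 2 (Hoxb5 left) 1 was called. In these fits 4.42%, 4.29% and 3.75% of all genes were called. For FFSS in DKO cells leaving out a library gave 0 throughout, where 0.0537 to 0.255% of all genes were called. For the interaction it gave 0 to 1, the 1 being Hoxc12 without control FFSS replicate 1, where the share of all genes was 0.275 to 7.6%. The cause was not tested.

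Of 645 values of single genes under alternatives, 626 kept their sign and side of the threshold, 10 passed it in addition, 7 no longer passed and 2 changed sign. Replicate numbers did not pair the libraries (mean correlation of deviations 0.00226 for same and -0.00116 for different numbers). With the replicate block the counts stayed at 7, 6, 2, 0 and 0, where 15.2%, 17.1%, 5.92%, 0.0939% and 0.564% of all genes were called. Depth limits Hoxb1, which held 7 counts over the 12 libraries, Hoxb4, which held 45, and the Hoxd genes other than Hoxd8, which held at most 2 each.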
